A study of Mus musculus with 8 samples.

Results

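Gut epithelial markers were followed in EGFP-sorted gut cells of E12.5 mouse embryos, on the probes that the array annotation assigned to 10 genes: Cdh1, Epcam, Krt8, Krt18, Krt19, Cldn4, Cldn6, Cldn7, Sox2 and Cdx2. Of the 19057 genes with a named probe these 10 had 13 of the 45281 probes on the Illumina MouseWG-6 v2 array, a bead array that reports 1 fluorescence intensity per probe. The rule named the genes and set no threshold on their values. Bapx1 (Nkx3-2) is a homeobox gene of the gut mesenchyme, so these epithelial transcripts served to read how much epithelium was carried over into the sort and whether this differed between the genotypes.

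Wildtype and Bapx1 null embryos of a C57BL/6J;129 background were compared, with 4 arrays for each genotype. In wildtype embryos the EGFP cassette followed an IRES in the 3' untranslated region of 1 Bapx1 allele, which left the coding region intact. In Bapx1 null embryos EGFP stood behind the start codon on both alleles, with a short stretch of the sequence there deleted, so that the number of EGFP alleles differed between the genotypes as well. In both, EGFP was driven by the endogenous Bapx1 locus, and the gate therefore selected cells in which that locus was active. By the methods the 4 arrays of a genotype are biological replicates. How many embryos made up each is not given in the sources used here.

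The gut tube consists of an endodermal epithelium and the mesenchyme around it. Epithelial cells are held together by E-cadherin, encoded by Cdh1, and by the adhesion molecule Epcam. They are sealed by claudins at the tight junctions and braced by keratin filaments, in which keratin 8 pairs with keratin 18 or 19. Sox2 is the transcription factor of the foregut endoderm and Cdx2 that of the intestinal endoderm, and both are needed to set the identity of these regions. Mesenchymal cells express repressors of the Zeb, Snail and Twist families, and Zeb and Snail proteins bind E-box sequences in the Cdh1 promoter.

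E-box sequences were looked for in the promoters of the epithelial genes, because these repressors were expressed on all 8 arrays. RefSeq promoter sequences (GRCm38.p6, 250 bases before to 50 bases after each transcript start) matched 8 of the 10 genes, all but Cdh1 and Krt19. The motif CAGGTG, searched on both strands (CACCTG on the other), was found in 6 of the 8. Over all genes with a promoter in the table the share was 22.6% (6098 of 27025). For 5 of these genes the match nearest to the transcript start on its upstream side is shown with its flanks, 5′ to 3′ on the strand of the gene, with the motif in capitals.
Epcam, 19 bases upstream (chr17:87635950-87635975, plus strand): ccataaaaccCAGGTGtggaggagaa
Cldn4, 14 bases upstream (chr5:134946933-134946958, minus strand): ttaactgcagCACCTGtggccgccct
Cldn7, 57 bases upstream (chr11:69965354-69965379, plus strand): acttccggttCAGGTGagtgtccctt
Cldn6, 93 bases upstream (chr17:23679262-23679287, plus strand): gaaacgcacgCAGGTGgctatcgccg
Krt18, 214 bases upstream (chr15:102027992-102028017, plus strand): gggctaacacCACCTGctatcctttg

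A match describes the letters only, and binding was not measured here. Of 4 other motifs searched on both strands, the GC box GGGCGG was found in 5 of the 8 genes (38.2% of all genes) and the grainyhead-like motif AACCNGTT in none (2.35%). The caudal motif TTTATG was found in Epcam alone (13.6% of all genes) and the forkhead motif TGTTTAC in Cdx2 alone (4.05%). No 2 matches in these promoters overlapped. Krt8 and Krt18 are neighbours on chromosome 15 in RefSeq.

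The arrays differed in signal over background. Probes detected, at a detection p under 0.01, made up 38.2% to 40% of all probes on the wildtype arrays and 36.3%, 31%, 36.4% and 38.5% on Bapx1 null replicates 1 to 4. The lowest normalized log2 value among detected probes was 5.31 to 5.46 on wildtype arrays but 6.27 on Bapx1 null replicate 2, so a dim transcript could go undetected there at a value that was detected elsewhere. Mesenchymal markers were detected for 14 of 14 genes. Probes of Bapx1 itself were not above background in wildtype and at least 2.79-fold higher in Bapx1 null for ILMN_2687592 (limma adjusted p = 0.00711). The position of these probes relative to the targeted sequences was not analysed here, so they did not check the genotypes.

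The epithelial transcripts ranged from Krt8 and Krt18, detected on all 8 arrays, to Epcam, detected on none. Epcam was not above background on any of the 8 arrays, and its probe ILMN_1240539 read 45.3, 47.2, 40.4 and 44.8 on the wildtype arrays and 44.1, 41.4, 42.1 and 46.6 on the Bapx1 null arrays (raw intensity). These values lie together, so that Epcam gave no measurement of carry-over in either genotype. Of the 13 probes 9 were detected on at least 1 array. Wildtype replicates 1 to 4 detected 5, 6, 5 and 7 of the 13 probes, and Bapx1 null replicates 1 to 4 detected 3, 2, 5 and 5. Of the 13 probes 4 (30.8%) were detected only in wildtype and 0 only in Bapx1 null, whereas of all 34885 named probes 1029 (2.95%) were detected only in wildtype and 500 only in Bapx1 null. The 4 were the single probes of Krt19, Cldn4 and Cdx2 and 1 probe of Sox2, each on 1 wildtype array.

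**Figure D1:**
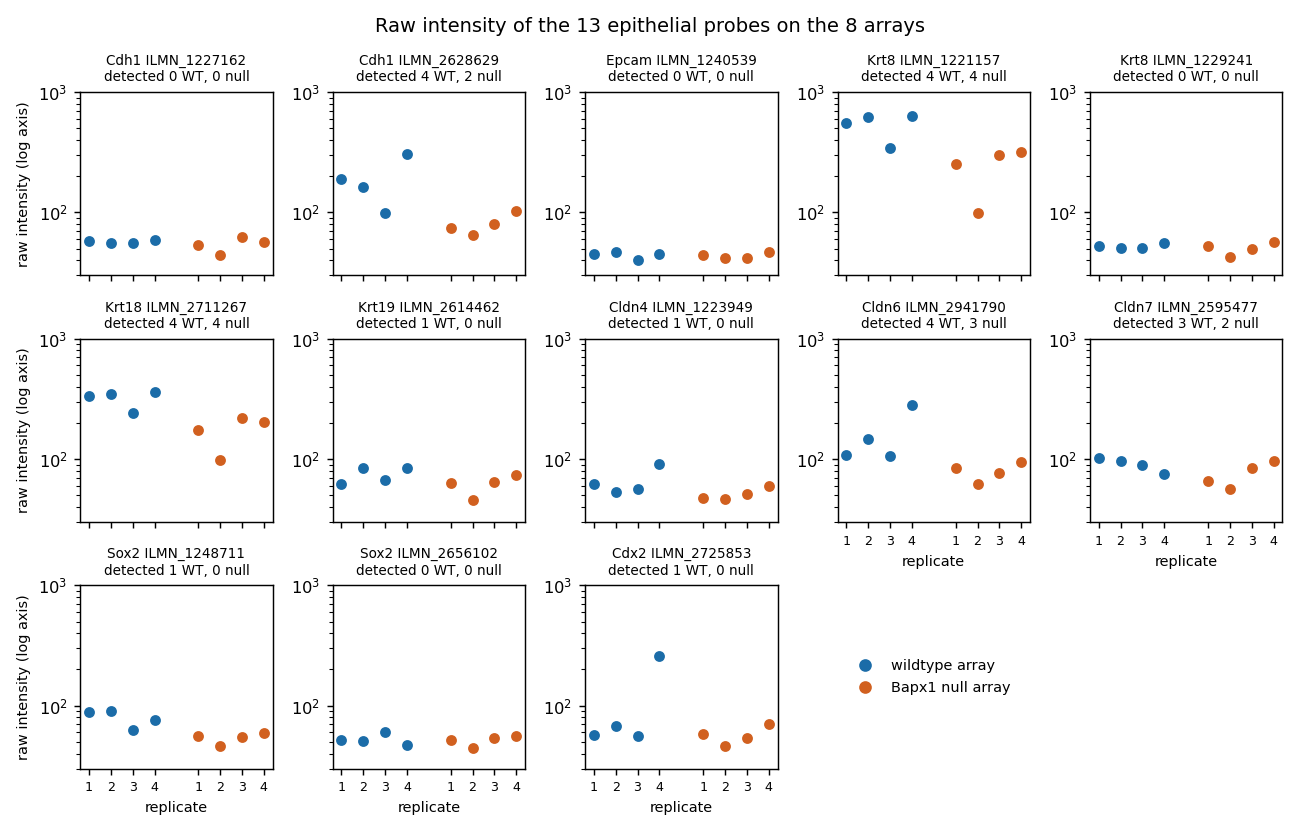
Raw intensity (log axis) of each of the 13 probes on the 8 arrays, with wildtype in blue and Bapx1 null in orange and the replicate number on the horizontal axis. Krt8 (ILMN_1221157) and Krt18 were detected on all 8 arrays, Epcam and the other Krt8 probe on none, and Cdx2 stood at 257.1 on wildtype replicate 4 and at 70.8 or less elsewhere.

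After the filter, which asked for detection on at least 4 of the 8 arrays, 5 of the 10 genes were tested: Cdh1, Krt8, Krt18, Cldn6 and Cldn7. All 5 had a lower mean in Bapx1 null, as did 42.8% of all genes tested. Cdh1 and Cldn6, detected on 4 wildtype arrays but on 2 and 3 Bapx1 null arrays, met the filter through wildtype alone. For these genes the filter itself partly set the direction, which also enters the counts and the median below. None of the 5 had an adjusted p under 0.05 (limma, Benjamini-Hochberg over 9784 genes), which 0.787% of all genes had, 0.531% higher and 0.256% lower. At an unadjusted p under 0.05 there were 4 of 5, each lower in Bapx1 null, where 27% of all genes were at that level and 9.73% were lower. The median log2 difference was -0.80 for the 5 genes and 0.07 for all genes tested. In 2 of the 5, Cdh1 and Krt8, all Bapx1 null values lay below all wildtype values, against 6.36% of all genes (18.6% in either direction). In sorted bulk cells, fewer epithelial cells and less RNA in each cannot be told apart.

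Krt8 and Krt18 were detected on all 8 arrays. The Krt8 probe ILMN_1221157 read 550.2, 619, 342.3 and 636.2 on the wildtype arrays and 250.6, 98, 297.2 and 316.8 on the Bapx1 null arrays (raw intensity). Wildtype replicate 3 was the lowest of its group and stood just above Bapx1 null replicate 4, whereas Bapx1 null replicate 2 was far below the rest. That array was the dimmest, with an upper quartile of all intensities of 91.3. After normalization Krt8 there was 7.30 against 7.81 to 8.14 on the other Bapx1 null arrays. The normalized log2 intensity averaged 8.62 ± 0.38 for wildtype against 7.79 ± 0.35 for Bapx1 null (SD, n = 4), which is 1.79-fold lower in Bapx1 null. The log2 difference was -0.84 ± 0.23 (SE), short of the threshold by limma (adjusted p = 0.104, unadjusted p = 0.00457). The other Krt8 probe, ILMN_1229241, was not above background on any array. Scaled by median and MAD instead, the difference of ILMN_1221157 was -0.21 when the median over all genes was 1.02, a gap of -1.23.

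Krt18, the partner of keratin 8 in simple epithelia, read 334, 346.9, 240.9 and 364.1 on the wildtype arrays and 174.5, 98.6, 217.3 and 201.6 on the Bapx1 null arrays (raw intensity). These raw values did not overlap, but the arrays differ in brightness, and after normalization Bapx1 null replicate 3 at 7.65 lay above wildtype replicates 1 and 3 at 7.62 and 7.59 (log2 intensity). The normalized means were 7.82 ± 0.25 and 7.32 ± 0.25 (SD, n = 4), a log2 difference of -0.50 ± 0.18 (SE, limma adjusted p = 0.134). Scaled by median and MAD it was -0.04, and -1.06 from that same median over genes. Krt19, a keratin of simple and ductal epithelia, was above background on wildtype replicate 4 only, at a raw intensity of 85 against 46 to 74 in Bapx1 null. Wildtype replicate 2 also read 85, without passing the detection limit of its array.

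Cdh1 was measured on 1 of its 2 probes. Probe ILMN_2628629 read 190.8, 161.7, 98.3 and 303.7 on the wildtype arrays and 74.8, 64.8, 79.8 and 102.7 on the Bapx1 null arrays (raw intensity). Wildtype replicate 4 was the highest, and wildtype replicate 3 fell within the raw range of Bapx1 null. It was detected on 4 of 4 wildtype and 2 of 4 Bapx1 null arrays, and 2 Bapx1 null values are therefore at background. Normalized log2 values of the wildtype arrays were 6.65, 6.69, 5.94 and 7.73, and those of the Bapx1 null arrays 5.41, 5.91, 5.75 and 5.81. The groups did not overlap on this scale, although 5.94 and 5.91 nearly met. The log2 difference of -1.03 ± 0.32 (SE), or 2.05-fold lower in Bapx1 null, was short of the threshold by limma (adjusted p = 0.118) and was -0.70 without wildtype replicate 4 (limma adjusted p = 0.203). Probe ILMN_1227162, which the annotation ties to the transcript record AK041755, was not above background on any array.

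**Figure D2:**
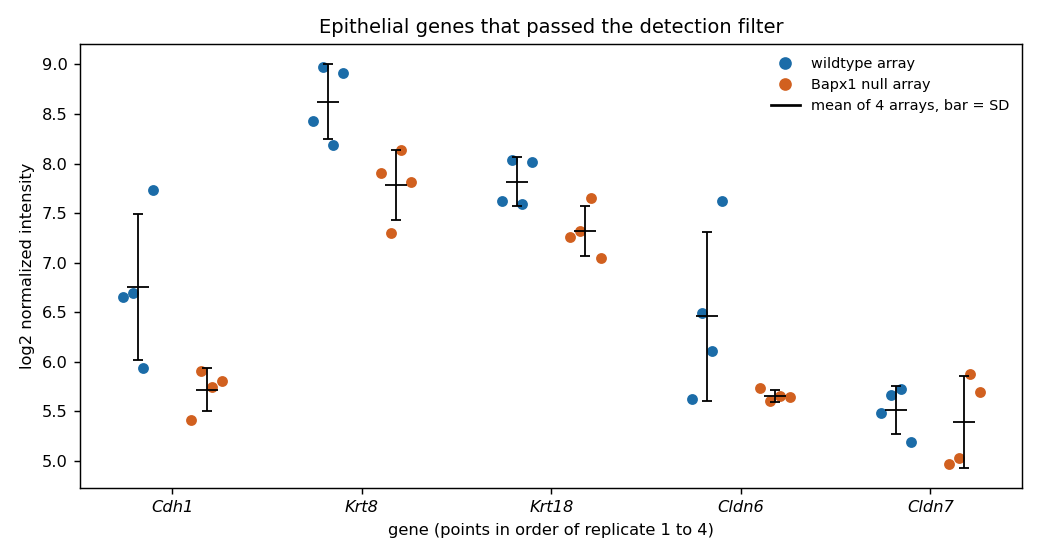
Normalized log2 intensity of the 5 genes that passed the filter, with 1 point per array (wildtype blue, Bapx1 null orange) and the mean with SD of 4 arrays. Cdh1 and Krt8 did not overlap between the genotypes, Krt18 overlapped by 1 Bapx1 null array, and Cldn7 overlapped throughout.

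Of the 3 claudins Cldn6 and Cldn7 passed the filter, and the difference between them was not tested. Cldn6, a claudin of embryonic epithelia, read 108.3, 146.4, 106.5 and 284 on the wildtype arrays and 83.9, 61.5, 76.7 and 94.5 on the Bapx1 null arrays (raw intensity). Wildtype replicate 4 was again the highest, and the 4 normalized Bapx1 null values lay close together at 5.66 ± 0.06 against 6.46 ± 0.85 in wildtype (log2 intensity, SD, n = 4). Cldn6 was detected on 4 wildtype and 3 Bapx1 null arrays. Its Bapx1 null values of 5.74, 5.60, 5.65 and 5.64 stood near or under the lowest detected values of those arrays (5.64, 6.27, 5.63 and 5.44). Their small SD is therefore that of values at the detection limit. Wildtype replicate 1, at 5.62, was within the Bapx1 null values. The log2 difference of -0.80 ± 0.35 (SE, limma adjusted p = 0.178) was -0.41 without wildtype replicate 4 (limma adjusted p = 0.28). Cldn7, a claudin of many adult and embryonic epithelia, read 101.1, 96.4, 89.6 and 75.7 on the wildtype arrays and 65.2, 56.3, 84 and 97 on the Bapx1 null arrays (raw intensity). It was detected on 3 wildtype and 2 Bapx1 null arrays, so its difference of -0.12 ± 0.23 (SE, limma adjusted p = 0.731) was taken in part against background. Wildtype replicate 4 was the lowest wildtype array here rather than the highest. Cldn4, whose protein forms paracellular barriers, was above background only on wildtype replicate 4, at 91.2 against 53.5 to 61.7 on the other wildtype arrays and 46.4 to 59.4 in Bapx1 null (raw intensity).

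**Figure D3:**
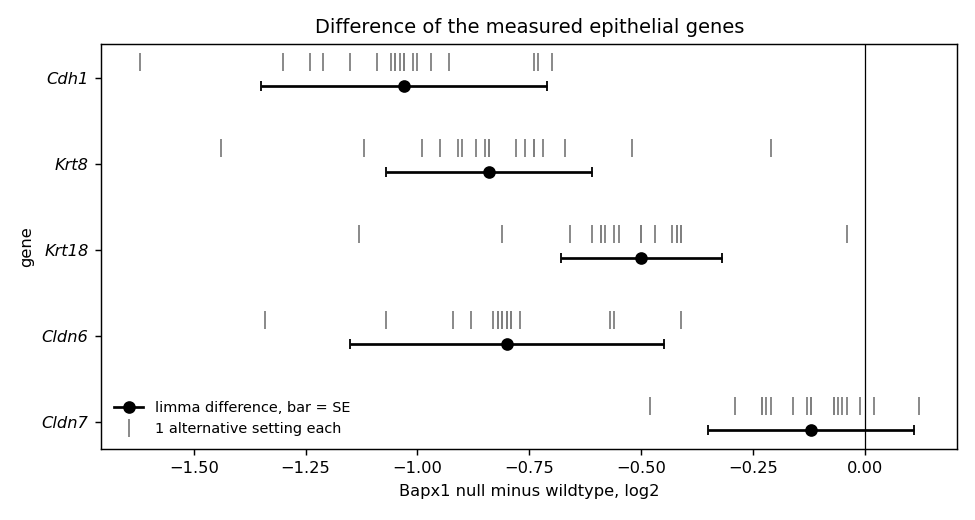
Difference in log2 intensity (Bapx1 null minus wildtype) of the 5 genes that passed the filter, as the limma estimate with its SE (black) and under each alternative setting (grey ticks). Cdh1, Krt8, Krt18 and Cldn6 stayed below 0 in each setting run, whereas Cldn7 crossed 0 in 2.

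Neither regional transcription factor passed the filter. Cdx2 was detected on wildtype replicate 4 alone, where it read 257.1, against 57.4, 67.3 and 55.9 on wildtype replicates 1 to 3 and 58.5, 46.3, 53.6 and 70.8 in Bapx1 null (raw intensity). On the normalized log2 scale wildtype replicate 4 was at 7.45 and the other wildtype arrays at 4.53 to 4.85, and the means were 5.38 and 4.70. For Sox2, probe ILMN_1248711 read 89.1, 89.7, 62.4 and 76.4 on the wildtype arrays and 55.9, 45.9, 55.3 and 59.6 on the Bapx1 null arrays (raw intensity). Only wildtype replicate 2 was above background, although all 4 wildtype values were higher than all 4 Bapx1 null values. With 7 of the 8 values at background no size is given for this difference. The other Sox2 probe was not above background on any array and differed by 0.00. The contrast of Cdx2 with Sox2 within arrays was not run, since neither was above background on more than 1 array.

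Wildtype replicate 4 had the most of these probes detected and the highest mean log2 intensity over the 5 genes tested, 7.49 against 6.71 to 7.17 on the other wildtype arrays. Of the 9 probes of these genes detected at all, 5 had their highest normalized value of the 8 arrays there, against 6.55% of all detected named probes. These were the probes of Cdh1, Krt19, Cldn4, Cldn6 and Cdx2. Of the rest, 3 were highest on wildtype replicate 2 (Krt8, Krt18 and Sox2) and 1, Cldn7, on Bapx1 null replicate 3. In the list of endodermal signals and intestinal differentiation, 3 of the 6 probes detected, from 2 of its 13 genes, were detected on wildtype replicate 4 only, where 0.865% of all detected named probes were. They were both probes of Shh, the hedgehog ligand that gut endoderm sends to the mesenchyme, and 1 of Muc13, a transmembrane mucin of intestinal epithelium. Shh (ILMN_2610013) read 258 on wildtype replicate 4 and 48.1 to 81.8 on the other arrays, and Muc13 (ILMN_2717678) read 100.4 there and 90.6 or less elsewhere (raw intensity). Lgals4 and Slc39a4, the 2 genes of that list that passed the filter, were highest on Bapx1 null replicate 3, at 7.09 and 6.08 on the log2 scale. Without wildtype replicate 4 the differences of Cdh1 and Cldn6 were -0.70 and -0.41 on the log2 scale, as given above.

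**Figure D4:**
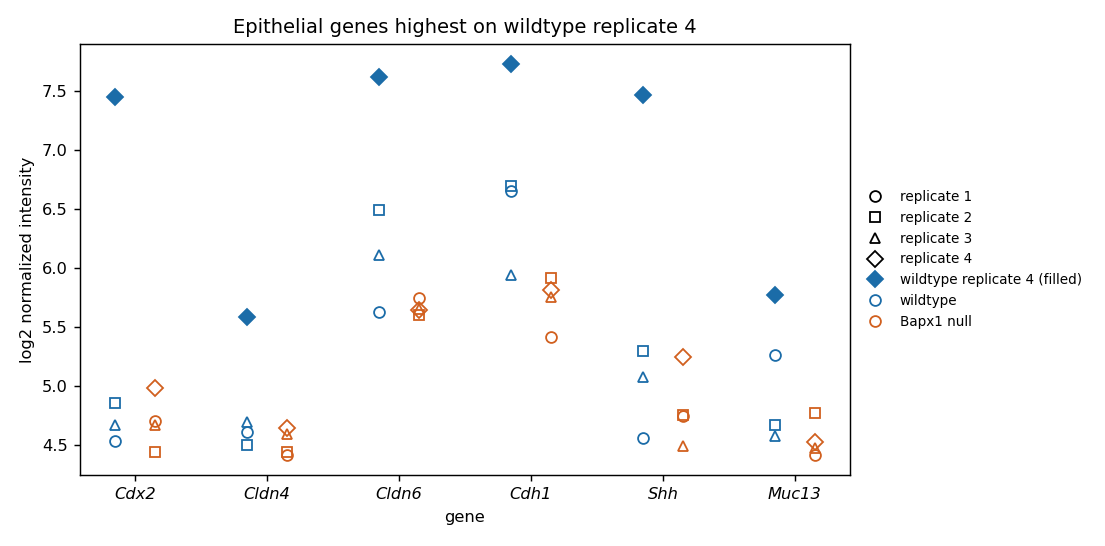
Normalized log2 intensity of Cdx2, Cldn4, Cldn6, Cdh1, Shh and Muc13 on each array, chosen after their values were seen. Wildtype replicate 4 (filled) was the highest array for each of the 6, at 7.45 for Cdx2 and 7.46 for Shh, and the Bapx1 null arrays (orange) lay at 5.91 or less.

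Other epithelial genes were mostly below background. Of 75 genes with a named probe in 4 further lists (junctions and adhesion, splicing with trafficking, proteases and keratins, endoderm transcription factors, and endodermal signals with intestinal differentiation), 46 were not detected on any array. These included the claudin gene Cldn3, the intestinal cadherin gene Cdh17, Rab25, a small GTPase of epithelial vesicle traffic, and the villin gene Vil1. Of the 128 probes of these lists 16 were detected only in wildtype and 2 only in Bapx1 null. Of all 34885 named probes these were 1029 and 500. Detection on more wildtype than Bapx1 null arrays held for 22 of the 128, and the reverse for 3. Over all named probes these counts were 3942 and 807. After the filter 16 genes were tested, of which 7 were lower and 9 higher in Bapx1 null, with a median log2 difference of 0.12. By limma 0 had an adjusted p under 0.05 (0.787% of all genes) and 5 an unadjusted one (27% of all genes). In the junction list 4 genes were tested, and the plakophilin gene Pkp2, a desmosomal plaque protein, differed by -0.63 (limma adjusted p = 0.131), whereas the desmosomal cadherin gene Dsg2, which heart muscle shares with epithelia, differed by 0.07 (limma adjusted p = 0.764), and by 0.48 on its other kept probe. F11r, which encodes a junctional adhesion molecule, differed by -0.35 and the envoplakin gene Evpl by 0.25.

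In the list of splicing, trafficking, protease and keratin genes 6 were tested, with 2 lower and 4 higher. Esrp1, which encodes an epithelial splicing regulator, read 107.4, 144.4, 74.7 and 220 on the wildtype arrays and 73, 52.6, 77.9 and 82.6 on the Bapx1 null arrays (raw intensity), again highest on wildtype replicate 4. Its log2 difference was -0.88 ± 0.38 (SE, limma adjusted p = 0.177). Spint1, which encodes an inhibitor of epithelial serine proteases, differed by -0.96 (limma adjusted p = 0.148), with its other probe below background. The protease gene Prss8 differed the other way, by 0.60 (limma adjusted p = 0.125), and Grhl1, a grainyhead-like factor, by 0.25 (limma adjusted p = 0.489).

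Of 4 endoderm transcription factors tested, Klf4 differed by -0.67 and Klf5 by 0.55 (limma adjusted p = 0.167 and 0.298), Gata6, which mesoderm expresses as well, by 0.41 (limma adjusted p = 0.253) and Onecut2 by -0.16. Without Bapx1 null replicate 4 Gata6 passed the threshold, the single gene of these 4 lists to do so, in a fit that called 1278 of all genes. The forkhead genes Foxa1 and Foxa3 and the nuclear receptor gene Hnf4a, regulators shared by gut and liver epithelium, were detected on 3 wildtype arrays and no Bapx1 null array. They were at least 1.11-fold, 1.17-fold and 1.15-fold higher in wildtype, where their lowest array was replicate 3. Of the signals and differentiation genes 2 were tested, and Lgals4, an intestinal galectin, differed by 0.33 and the zinc transporter gene Slc39a4 by -0.19.

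Krt8, Krt18 and Cdh1 are shared with other cells that a gut dissection can hold, and their markers were set beside them. Fetal hepatocytes express all 3. Of 7 hepatocyte genes tested 7 were lower in Bapx1 null, as were 42.8% of all genes tested, with a median log2 difference of -3.27. Past the threshold was 1, Tdo2 (limma adjusted p = 0.0214), where 0.256% of all genes were called lower. None of the other hepatocyte genes passed it. The differences of the 7 were taken largely against background, since each gene was detected on 4 wildtype arrays but on 2 or fewer Bapx1 null arrays. Each thus met the filter through its wildtype arrays alone, so the filter itself partly set the shared direction. Tdo2, detected on no Bapx1 null array, was at least 1.01-fold higher in wildtype. It was dim and even on the wildtype arrays, at 106.5, 97.9, 94.8 and 107.8 (raw intensity), unlike Afp below. The summed normalized intensity of the 7 genes was 532 to 13250 in wildtype and 254 to 514 in Bapx1 null, while Alb and Fgb were not above background on any array. Afp, encoding alpha-fetoprotein, read 7307.5, 2149.8, 157.1 and 5032.4 on the wildtype arrays and 53.2, 72.9, 166.5 and 60.7 on the Bapx1 null arrays (raw intensity). Among the wildtype arrays Afp was highest on replicate 1 and lowest on replicate 3, and Cdh1 was highest on replicate 4. Krt8 and Krt18 were highest on replicate 4 in raw intensity. After normalization replicate 2 was narrowly above it, at 8.97 against 8.91 for Krt8 and 8.04 against 8.02 for Krt18. Krt8, Krt18 and Cdh1 were all 3 lowest on replicate 3. The part of hepatocyte RNA in the difference of these 3 genes was not tested.

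Mesothelial cells also contain keratins 8 and 18. Of 9 mesothelial genes tested 7 were lower and 2 higher in Bapx1 null, with a median log2 difference of -0.38. Limma called 0 of them (0.787% of all genes), and 4 had an unadjusted p under 0.05 (27% of all genes). Their summed normalized intensity was 3204 to 6375 in wildtype and 3273 to 4369 in Bapx1 null, and Msln was not above background on any array. Upk3b, a uroplakin of mesothelium, differed by -0.35 on probe ILMN_2941714 (limma adjusted p = 0.38), while the other probes differed by -0.63 and -0.82. Podxl, a sialomucin of mesothelium, podocytes and vessels, read 627.8, 920.5, 505.1 and 741.5 on the wildtype arrays and 295.4, 117.9, 347.4 and 443.5 on the Bapx1 null arrays (raw intensity, log2 difference -0.89, limma adjusted p = 0.0927). The part of mesothelial RNA was not tested either.

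Pancreatic epithelium and enteric neural crest were read as well, the latter because its cells also express Sox2. Of the pancreatic list 2 genes were tested, Gcg and Cpa1, at 0.45 and 0.00 on the log2 scale, with a summed intensity of 65 to 187 in wildtype and 82 to 209 in Bapx1 null, and Ptf1a and Pdx1 were not above background. Of 6 neural crest and neuron genes tested 4 were higher and 2 lower in Bapx1 null. Limma called 0 of them (0.787% of all genes), and 2 had an unadjusted p under 0.05 (27% of all genes). Their summed intensity was 1790 to 2599 in wildtype and 2518 to 2990 in Bapx1 null, and Foxd3 was not above background. The neuronal gene Elavl4 differed by -0.65 (limma adjusted p = 0.0792), Ednrb by 0.38 (and -0.16 on its other kept probe), Ret by -0.31 and Stmn2 by 0.28. Elavl4 and Ret were each detected on 4 wildtype arrays but on 1 Bapx1 null array. They met the filter through wildtype alone, and their differences were taken largely against background.

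The 14 mesenchymal genes all passed the filter, Bapx1 through the Bapx1 null arrays alone. Of these 14, 1 passed the threshold, which was Bapx1 itself, where 0.787% of all genes did. The median log2 difference of the 14 was 0.07. Col1a2, Osr1 and Barx1 differed by 1.58, 0.84 and 0.84 and the vimentin gene Vim by -0.77 (limma adjusted p = 0.108, 0.144, 0.119 and 0.149). The summed intensity of the list was 24074 to 27578 in wildtype and 19614 to 31130 in Bapx1 null. Of 9 mesenchymal cadherins and E-box-binding factors tested limma called 0 (0.787% of all genes), with 1 at an unadjusted p under 0.05 (27% of all genes). The median log2 difference of the 9 was 0.01. Zeb1 differed by -0.13, Zeb2 by 0.22, Snai1 by -0.14 and Snai2 by 0.01, while Twist1, the exception, differed by -1.04 (limma adjusted p = 0.131) and Cdh11 by -0.39.

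Krt8 was set against Cdh1 within each array, since mesothelium has the keratin and little E-cadherin. The log2 value of Krt8 minus that of Cdh1 was 1.78, 2.28, 2.25 and 1.17 on the wildtype arrays, and on the Bapx1 null arrays it was 2.49, 1.39, 2.39 and 2. The lowest was wildtype replicate 4, the array with the most Cdh1, and the genotypes overlapped. Cdh1 was not above background on Bapx1 null replicates 1 and 2, so the values 2.49 and 1.39 there are differences from background. The means of 1.87 ± 0.52 and 2.07 ± 0.50 (SD, n = 4) differed by 0.20 (exact permutation test, two-sided, p = 0.629, where 0.0286 is the smallest p that 4 against 4 arrays allow). This was the only pair tested.

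The genes with profiles closest to each epithelial gene were found by the root mean square difference in log2 intensity over the 8 arrays, after each gene was centred on its mean. Nearest to Cdh1 were Gmfg, Grb7 and Fam78a, at 0.251, 0.284 and 0.285. Nearest to Krt8 were Arhgap18, Podxl and Kif21a, at 0.159, 0.172 and 0.191, and nearest to Krt18 were Cables1, Col18a1 and Zswim5, at 0.114, 0.125 and 0.134. Cldn6 was the one gene whose 3 nearest included a gene of the epithelial lists, Esrp1 at 0.328, and no epithelial gene was among the 3 nearest of another.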

How the data were processed

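The authors deposited a raw signal intensity for each probe (GenomeStudio export, version not given in the sources used here), with neither background subtraction nor normalization. Beside it they deposited a fraction headed as a detection p, which rose with intensity (Spearman correlation of at least 0.976 on each array) and was converted as 1 minus the value. A second deposited table held log2 values, equal to the log2 intensity minus the array median and a baseline per probe (column medians -0.0112 to 0.0145). Scale, centring and direction were thus known, but what the baseline was taken over was not. Its 45281 rows were joined to the intensities on the differences between arrays, within 1.82e-06 (next row at least 0.00905 away). The annotation named 34885 probes with 1 gene, 18 with several, and 10378 were unnamed here. No 2 arrays held identical values.

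Intensities were corrected with nec (limma 3.58.1, R 4.3.3, offset 16, negative controls inferred from the detection p) and quantile normalized on the log2 scale. Probes with a detection p under 0.01 on at least 4 of 8 arrays were kept (17440), and the kept probe with the highest mean stood for its gene (9784 genes). Genotypes were compared with limma (lmFit, eBayes) and Benjamini-Hochberg adjustment at 0.05, after tests on simulated data. Adjusted p-values come from this model. Lower bounds ("at least") set the brighter genotype against, per array, the higher of the dim value and the lowest detected value. The number of arrays limits the precision. Genes named were the 10 members, up to 4 genes of each other list by size of difference, Bapx1 and the nearest profiles. That order was not followed for the hepatocyte and mesothelial lists. Left out there were Ttr, Ambp, Trf, Gpm6a and Bnc1, with log2 differences of -4, -3.55, -3.27, -0.92 and -0.8. Other named genes (Alb, Fgb, Tdo2, Afp, Upk3b, Foxa1, Foxa3, Hnf4a, Gata4, Cdx1, Ovol2, Shh, Muc13, Cldn3, Cdh17, Rab25, Vil1, Zeb and Snail genes and genes below background) were added after their values were seen. Members and lists were chosen with earlier results of these data known. One promoter window is not reported here.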

Additional observations from a re-analysis of the deposited data

Results flagged for a closer look

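Cdx2 on wildtype replicate 4 stood apart from the other 3 wildtype arrays, at a log2 intensity of 7.45 against 4.53, 4.85 and 4.67. The gap to the nearest array was 0.892 of the range of the group, above Dixon's critical value for 4 samples. It was the one such value among 14 groups of arrays examined for the epithelial probes, and chance gives about 1 in 20.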

How the results depend on the processing

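None of the epithelial genes passed the adjusted threshold under any alternative run, with or without 1 array (limma, and the test of the methods). The smallest adjusted p was 0.0564, for Krt8 without Bapx1 null replicate 4. Cdh1, Krt8, Krt18 and Cldn6 were lower in Bapx1 null in each alternative that measured them. Cldn7 turned to 0.12 with the share of probes detected on an array in the model and ranged from -0.29 to 0.02 without 1 array. Krt8 minus Cdh1 turned to -0.01 (exact permutation p = 0.943) without background correction, to -0.01 (p = 0.971) with an offset of 50 and to -0.12 (p = 0.743) with the processed table of the authors, was 0.76 (p = 0.143) with MAD scaling, and ranged from -0.04 to 0.48 without 1 array. The 4 other epithelial lists had 0 to 1 genes past the threshold without 1 array, the 1 being Gata6 without Bapx1 null replicate 4.

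Calls over all genes moved more. Against 77 (52 higher and 25 lower), there were 45 (1 higher) without normalization between arrays, 8 (1 higher) with the processed table, 0 with MAD scaling (limma, 5074 at an unadjusted p under 0.05), 2 with the test of the methods, 2 with the detected share in the model, 49 without the filter, 202 with array weights, and 4 to 1278 without 1 array. The median difference of all genes was -0.45, -0.25 and 1.02 without normalization, with the processed table and with MAD scaling. Same-numbered arrays did not deviate together (r of 0.148, -0.175, -0.0554 and -0.137 for numbers 1 to 4), so the numbers were not taken as pairs. With the replicate block 51 genes passed, 0 of them epithelial genes of the 10, and Cdh1 and Krt8 had adjusted p = 0.127 and 0.147. Dim probes limit the reading, since 5 of the 10 genes were not above background on enough arrays to test. The contrast of Cdx2 with Sox2 was not run.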
